A study of Mus musculus with 6 samples.

Results

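The genes described here are *Il11* and 9 further genes of the gp130 cytokine axis, *Il6*, *Lif*, *Clcf1*, *Il11ra1*, *Il6ra*, *Il6st*, *Lifr*, *Osmr* and *Socs3*, which were taken by symbol from the 46517 genes counted in the series. They were measured by RNA sequencing in primary cultures of renal tubule epithelial cells (RTECs) grown from the kidneys of wild type FvB mice, aged 4 to 6 weeks by the labels. All cultures were grown in RPMI medium with 10% fetal bovine serum, 20 ng/ml EGF, insulin–transferrin–selenium and antibiotics, and all were kept in serum-free RPMI for 24 h before treatment. 3 cultures then received 50 ng/ml TGF-β1 for 24 h, and 3 were controls (CTL), for which the labels name no vehicle. Nothing states whether the cultures came from separate animals, so the errors given here measure the spread between these cultures. These were bulk cultures, in which fewer cells of a type and less RNA per cell cannot be told apart. The rise of *Il11* in these data was known when the 10 genes were chosen, and the values of all 10 in the comparison of TGF-β1 with CTL are therefore given as a description, without p-values.

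Interleukin-11, interleukin-6, LIF and cardiotrophin-like cytokine (the product of *Clcf1*) belong to one family of cytokines that signal through the shared receptor subunit gp130, which *Il6st* encodes. Interleukin-11 and interleukin-6 first bind a receptor chain of their own, encoded by *Il11ra1* and *Il6ra*, and then pair gp130 with itself, whereas LIF pairs gp130 with the LIF receptor and oncostatin M pairs it with the product of *Osmr* or *Lifr*. The paired receptors activate JAK kinases and the transcription factor STAT3. *Socs3* is a STAT3 target gene, and its protein binds gp130 and shuts the signal off. In the kidney this axis is known for its part in tubule injury and fibrosis, and *Il11* is known as a gene that TGF-β induces in several cell types.

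The promoter of *Il11* is shown because this gene had the largest rise of the 9 genes tested, and that of *Socs3* because it is the feedback gene of the axis. RefSeq gives *Il11* a pair of transcription starts, and the window before the one inside the gene as GENCODE draws it holds an AP-1 motif. Each window is the 250 bases before a start on the gene's strand (minus for both genes, GRCm38.p6), at chr7:4778142-4778391 for *Il11* and chr11:117969367-117969616 for *Socs3*. Capitals mark TGANTCA, the motif of AP-1 factors, and TTCNNNGAA, the motif of STAT factors.
Il11: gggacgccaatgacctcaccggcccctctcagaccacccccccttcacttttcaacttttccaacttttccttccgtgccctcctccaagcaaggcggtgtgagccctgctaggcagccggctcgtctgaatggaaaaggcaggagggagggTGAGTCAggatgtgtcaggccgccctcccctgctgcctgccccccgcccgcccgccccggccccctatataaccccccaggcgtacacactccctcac
Socs3: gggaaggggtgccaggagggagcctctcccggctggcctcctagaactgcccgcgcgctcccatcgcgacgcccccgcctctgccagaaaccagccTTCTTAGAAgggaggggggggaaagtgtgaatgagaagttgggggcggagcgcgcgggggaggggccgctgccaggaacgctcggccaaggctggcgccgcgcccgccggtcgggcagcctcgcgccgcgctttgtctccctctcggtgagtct
The AP-1 motif of *Il11* began 98 bases before the start, and the STAT motif of *Socs3* began 154 bases before it. RefSeq promoters were matched for 9 of the 10 genes and not for *Clcf1*. Of these genes, *Il11*, *Il6* and *Lif* held TGANTCA, which 6.75% of all 32851 RefSeq promoter windows held, and *Socs3* alone held TTCNNNGAA, which 7.02% of the windows held. CAGAC, the motif of SMAD factors, searched on both strands, was found in windows of *Il11*, *Lif*, *Il11ra1* and *Lifr*, and in 42.2% of all windows. These motifs were chosen with the expression values known, and a match describes letters, not binding.

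The 3′ UTRs carry a feature that divides the 10 genes by role. AU-rich elements are stretches that mark many cytokine mRNAs for rapid decay. The heptamer TATTTAT, written as DNA and searched on the transcript strand, occurred in the 3′ UTR of all 4 cytokine genes and of *Socs3*, and in none of the 5 receptor genes. Of 21707 genes with an annotated 3′ UTR (longest coding transcript, GENCODE M21), 26.5% held it. *Il11* had 6 copies in 1197 bases, *Lif* had 5 in 3183, *Clcf1* had 4 in 925, *Socs3* had 2 in 1477 and *Il6* had 1 in 1671, and 1.65% of all genes had 4 or more. The 3′ UTRs of *Il6ra*, *Lifr* and *Il6st* had none, although at 7105, 6323 and 5644 bases they were the longest of the 10. The densest stretches of the cytokine genes are shown with the heptamers in capitals, and in *Il11* and *Clcf1* copies overlap.
Il11, chr7:4773492-4773521, minus strand: ctTATTTATTTATTTATtttggtacttgga
Lif, chr11:4270478-4270507, plus strand: tcTATTTATtactatgtccTATTTATatta
Clcf1, chr19:4223403-4223432, plus strand: aaTATTTATTTATttggagatgtTATTTAT

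**Figure D1:**
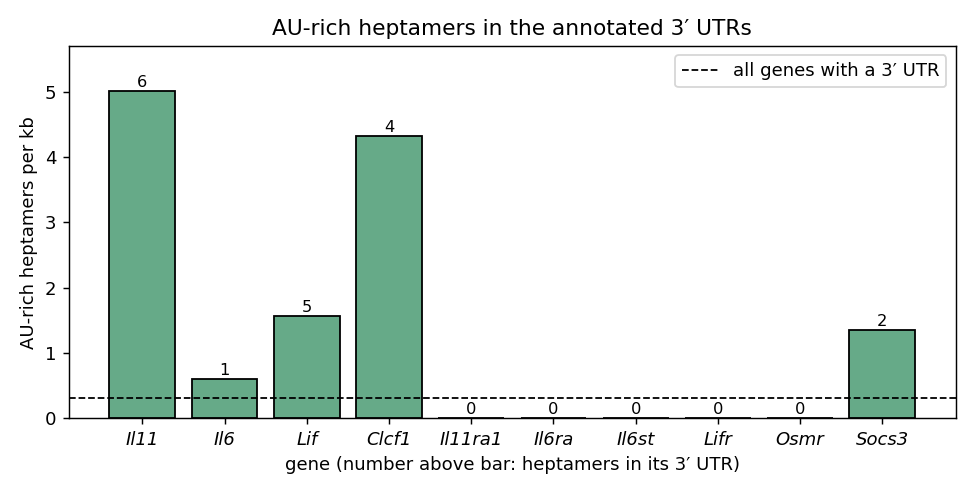
Copies of the AU-rich heptamer per kb of annotated 3′ UTR for each of the 10 genes (bars, with the number of copies above each) and over all genes with a 3′ UTR (dashed line, 0.311 per kb). The 4 cytokine genes and *Socs3* stand above the line, with 5.01 per kb in *Il11*, and the 5 receptor genes are at 0.

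The libraries held 28313080 to 34183497 reads on genes. Both cultures numbered 2 stood apart from the others: their Y-linked transcripts summed to 151 and 142 CPM (a gene's reads scaled to a common library total, with TMM factors), against at most 0.172 in the other 4. *Xist*, expressed from the inactive X chromosome of female cells, had 516 to 633 CPM in those 4 and 237 and 207 CPM in the cultures numbered 2. The study's methods give the mice as males, which the *Xist* values of all 6 cultures go against, as do the Y-linked values of those 4. The cultures numbered 2 held both Y-linked transcripts and *Xist*, and whether they mixed cells of both sexes was not tested. The difference of the cultures numbered 2 from the other 4 cannot be told apart from the sex of the animals. In the cultures numbered 2, 8 tubule epithelial markers summed to 1261 CPM in CTL and 1050 CPM after TGF-β1, against 1978 to 2849 CPM in the other 4, so the labelled cell type was present in all 6. The low sums of replicate 2 came from *Krt8*, *Krt18*, *Epcam* and *Cdh1*, whereas *Pax8* was at its highest, 215 CPM, in CTL replicate 2. With TGF-β1, *Cdh16* and *Pax8* were lower without overlap, by log2 fold changes of -1.50 and -0.77 (edgeR adjusted p = 0.00922 and 0.00436). This made 2 of the 8 tubule markers lower, and 6 with the replicate block. Of all tested genes, 6.69% were lower, and 19.1% with the block. In replicate 2, 8 fibroblast markers summed to 2568 and 3358 CPM, against 1034 to 1437 in the other 4. The collagen genes *Col1a1*, *Col1a2* and *Col3a1* and the receptor gene *Pdgfrb* carried this sum, and another marker of the list, *Thy1*, was lowest in replicate 2, with 0.425 and 0.458 CPM against 1.07 to 2.22 CPM. The ranges of the fibroblast sum overlapped between CTL (1034 to 2568) and TGF-β1 (1077 to 3358). Sums of 6 endothelial markers (2.61 to 4.73 CPM) and 7 leukocyte markers (6.80 to 21.3 CPM) were low in all cultures, and *Cd3e* was at or near 0. Of the genes listed as a check of the TGF-β1 treatment, *Smad7*, *Skil* and *Pmepa1* rose by 0.55, 0.76 and 0.87 on the log2 scale (edgeR adjusted p = 0.014, 0.00379 and 0.0105), and *Tgfbi* had means of 0.726 CPM in CTL and 0.644 CPM after TGF-β1 (edgeR adjusted p = 0.747).

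Across all genes, 15862 had enough reads to be tested, of which 5% rose and 6.69% fell after TGF-β1 (edgeR, adjusted p-value below 0.05). These were 793 and 1061 genes, and scaling by library size only gave 508 and 1467. Of the 10 genes, 9 were tested: 1, *Il11*, was past this threshold on the higher side, and 4, *Il6st*, *Lifr*, *Osmr* and *Socs3*, on the lower side. When the shared replicate number entered the model as a block, *Il6ra* joined the higher side and *Clcf1* and *Il11ra1* the lower side, making 2 and 6, and 15.1% and 19.1% of all genes were past the threshold. Nothing is read from these counts, since the genes were chosen by values of this comparison, the CPM and fold changes of TGF-β1 against CTL. The calls rest on few cultures, and the fits that left cultures out had no block. Without both cultures numbered 1, 0 of the 9 genes and 0 of all genes passed in edgeR, although 1938 genes had an unadjusted p-value under 0.05. The 4 lower calls all fell away without CTL replicate 1 or without TGF-β1 replicate 1, while the *Il11* call stood in all 6 fits that left out 1 culture. Of those 6 fits, *Socs3* passed in 4, *Osmr* in 3, and *Il6st* and *Lifr* in 2 each. Without TGF-β1 replicate 2 *Socs3* alone of the 4 passed, and without TGF-β1 replicate 3 *Osmr* and *Socs3* did. All these fits reuse the comparison that chose the genes, so passing in them is a description and no support.

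Of the 3 cytokine genes tested, *Il11* alone was past the threshold in the fit without the block. *Il11* (ENSMUSG00000004371, chromosome 7 of GRCm38, 4772373 to 4782859, minus strand) had 18.8, 30.6 and 20.8 CPM in CTL replicates 1, 2 and 3 and 198, 297 and 138 CPM in TGF-β1 replicates 1, 2 and 3. Every TGF-β1 culture lay above every CTL culture, and replicate 2 was the highest culture of each group. The means were 23.4 ± 6.3 and 211 ± 80.1 CPM (SD, n = 3 each), and the log2 fold change was 3.17 (standard error 0.34). The log2 ratios within same-numbered pairs were 3.39, 3.28 and 2.73. The fibroblast marker sum was also highest in both cultures numbered 2, and its part in the level of *Il11* was not tested. Without both of these cultures the log2 fold change was 3.08.

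The other cytokine genes had smaller differences or few reads. *Lif*, whose product acts on stem cells and in kidney development, had 60.3, 36.7 and 87.3 CPM in CTL and 74.9, 67.5 and 86.9 CPM after TGF-β1. The groups overlapped, the 3 treated cultures lying within the CTL range, and the log2 fold change was 0.32 (standard error 0.30). *Lif* was lowest in replicate 2 in both groups, the reverse of *Il11*. *Clcf1*, whose product supports neurons and B cells, had 208, 201 and 181 CPM in CTL and 181, 159 and 134 CPM after TGF-β1. The value of TGF-β1 replicate 1 just exceeded that of CTL replicate 3, and the log2 fold change was -0.32 (standard error 0.12), with a lower value after TGF-β1 in each of the 3 pairs. An overlapping gene model, *AC109138.7*, shares 6.77% of the 50-base stretches of *Clcf1*, so its counts are uncertain to that extent. *Il6*, the founding cytokine of the family, was barely detected. It had 2 reads in each CTL library and 5, 19 and 8 reads in TGF-β1 replicates 1, 2 and 3, too few to be tested. Pooled over libraries, its ratio was 5.29, with an exact 95% interval of 2.18 to 15.5 that covers counting error only. The CTL libraries were each below the limit of 3 reads, and 19 of the 32 reads after TGF-β1 came from replicate 2.

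**Figure D2:**
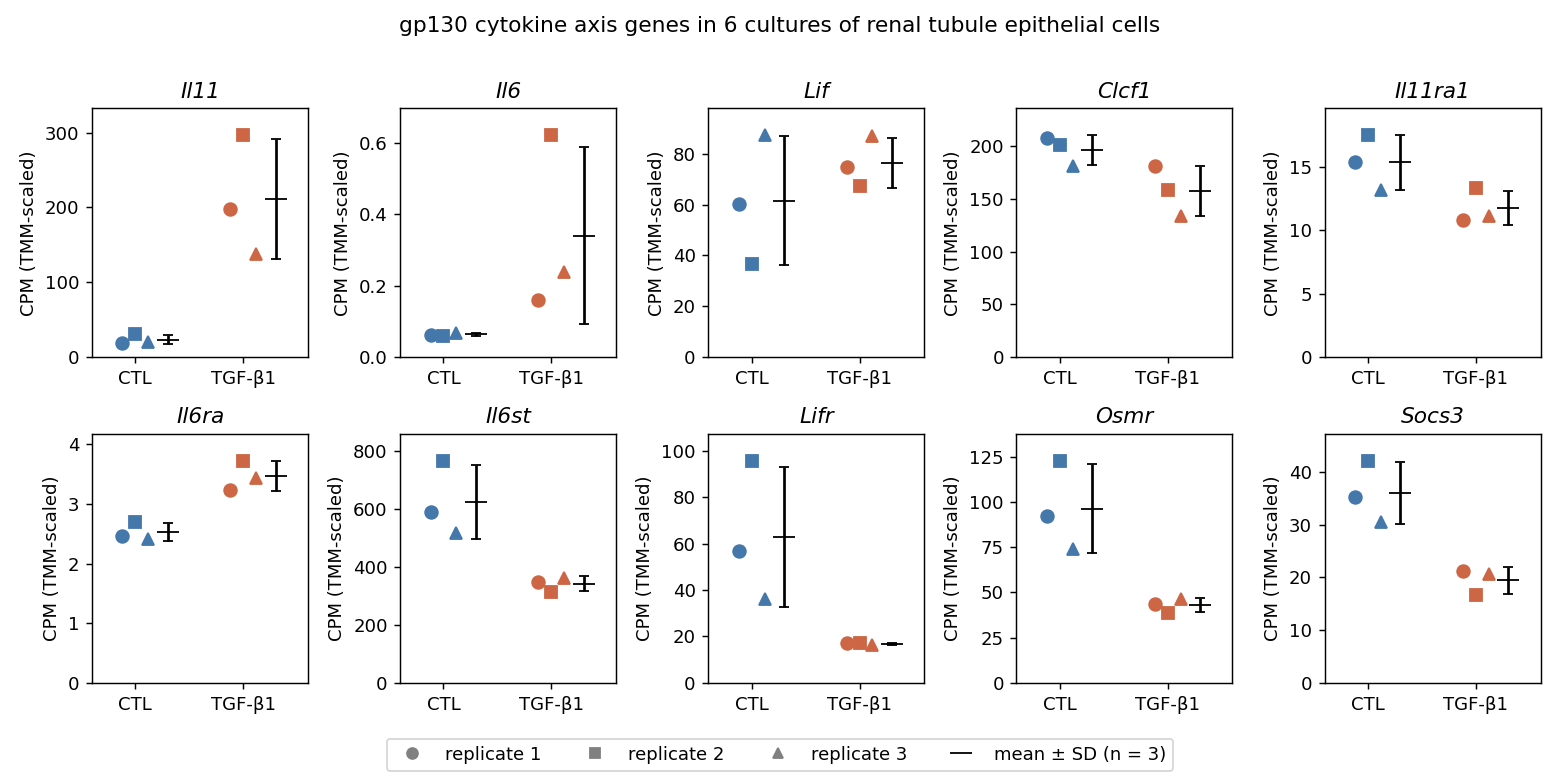
CPM (TMM-scaled) of the 10 genes in CTL and TGF-β1 cultures, each point being 1 culture with its shape giving the replicate number, and black bars the mean ± SD (n = 3). *Il11* runs from 18.8 to 30.6 CPM in CTL and from 138 to 297 CPM after TGF-β1, while *Il6st*, *Lifr*, *Osmr* and *Socs3* lie lower after TGF-β1 without overlap.

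The chains that recognise single cytokines passed the threshold only with the block, in opposite directions. *Il11ra1*, the specific receptor of interleukin-11, had 15.4, 17.5 and 13.2 CPM in CTL and 10.8, 13.3 and 11.1 CPM after TGF-β1. The ranges met at CTL replicate 3 and TGF-β1 replicate 2, and the log2 fold change was -0.39 (standard error 0.14), negative in all 3 pairs. Its counts are uncertain, because 46.3% of the 50-base stretches of its transcripts also occur in *Il11ra2* or *Gm13305*, and the authors' counting dropped reads that aligned to several places. *Il6ra*, the specific receptor of interleukin-6, had 2.47, 2.70 and 2.41 CPM in CTL and 3.24, 3.73 and 3.44 CPM after TGF-β1. These groups did not overlap, and the log2 fold change was 0.46 (standard error 0.13), at 70 to 116 reads per library. An antisense gene, *Gm42809*, overlaps its exons over 242 bases, and the strand setting of the counting is not given.

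The shared, signalling receptor chains were all lower with TGF-β1. *Il6st*, which encodes gp130 (chromosome 13, 112464070 to 112510086), had 590, 767 and 518 CPM in CTL and 350, 313 and 363 CPM after TGF-β1. *Lifr*, the LIF receptor chain (chromosome 15, 7090614 to 7197489), had 56.7, 95.8 and 36.2 CPM in CTL and 17.1, 17.2 and 16.2 CPM after TGF-β1. *Osmr*, the oncostatin M receptor chain (chromosome 15, 6813577 to 6874969), had 92.4, 123 and 73.8 CPM in CTL and 43.8, 38.6 and 46.3 CPM after TGF-β1. In each of the 3 genes the groups did not overlap, and the CTL cultures stood in the same order, with replicate 2 highest and replicate 3 lowest. The treated cultures were closer together than the CTL cultures: for *Lifr* the SD was 30.3 CPM in CTL and 0.56 CPM after TGF-β1. Log2 fold changes were -0.87 for *Il6st*, -1.90 for *Lifr* and -1.17 for *Osmr* (standard errors 0.15, 0.35 and 0.19).

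Within same-numbered pairs, each of these 3 genes fell most in replicate 2 and least in replicate 3. For *Lifr* the pair log2 ratios were -1.73, -2.48 and -1.16 for replicates 1, 2 and 3, and for *Il6st* they were -0.75, -1.29 and -0.52. Without both cultures numbered 2, the log2 fold changes were -0.64 for *Il6st*, -1.49 for *Lifr* and -0.88 for *Osmr*. When all genes with at least 1 read were tested, *Lifr* no longer passed the threshold, although its log2 fold change was -1.90 there too.

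The feedback inhibitor *Socs3* (chromosome 11, 117966079 to 117970047, minus strand) was lower as well. It had 35.2, 42.1 and 30.5 CPM in CTL and 21.3, 16.6 and 20.6 CPM after TGF-β1. The groups did not overlap, the log2 fold change was -0.88 (standard error 0.15), and the pair log2 ratios of -0.73, -1.35 and -0.57 were in the same order as those of the receptor chains. The tubule markers *Cdh16* and *Pax8* were lower along with *Il6st*, *Lifr*, *Osmr* and *Socs3*. Of the 8 tubule markers, 6 had negative log2 fold changes and 2, *Krt8* and *Krt18*, had positive ones. *Epcam*, *Cdh1*, *Krt8* and *Krt18* had -0.13, -0.20, 0.06 and 0.12 (edgeR adjusted p = 0.930, 0.872, 0.964 and 0.912). The part of tubule markers in the falls of the 4 genes was not tested. Without both cultures numbered 2 the *Socs3* value was -0.65. Of all tested genes, 17.2% were higher and 18% were lower without overlap of the groups.

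**Figure D3:**
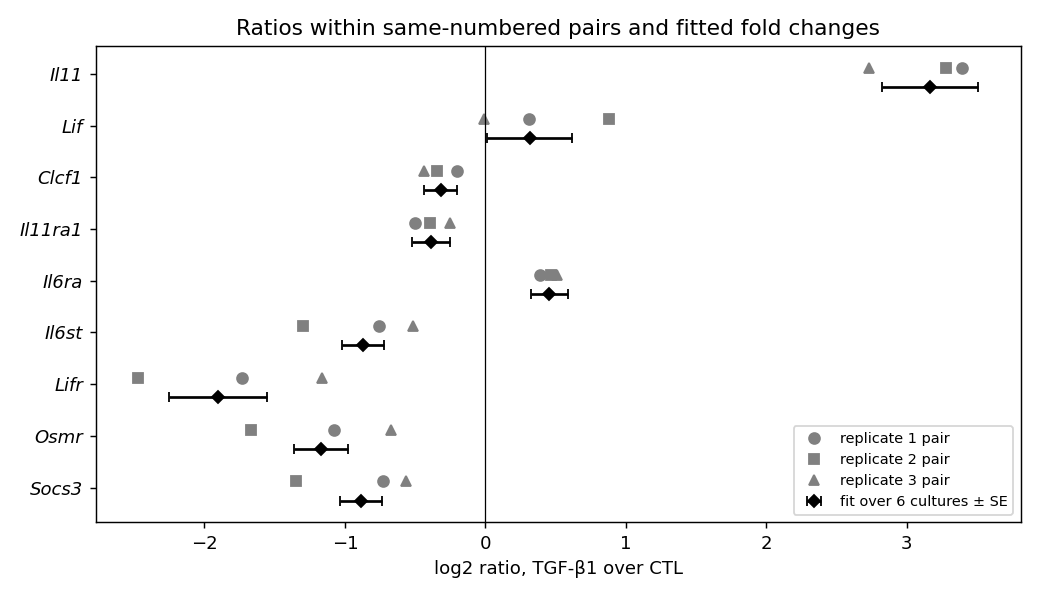
Log2 ratios of TGF-β1 to CTL for the 9 tested genes, within same-numbered pairs (grey, shape by replicate number) and as fitted over all 6 cultures with the standard error (black diamonds). *Il11* stands at 3.17, the receptor chains *Il6st*, *Lifr* and *Osmr* and *Socs3* lie between -0.87 and -1.90, and the replicate 2 pair has the largest fall in each of these 4.

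Levels of different genes were compared as CPM per kb of exon, since a longer transcript collects more reads. In CTL cultures *Il6st* (56.3 ± 11.5 CPM per kb) and *Clcf1* (51.7 ± 3.7) led, and their ranges overlapped. *Lif* (14.1 ± 5.8), *Socs3* (12.4 ± 2.0), *Il11* (11.3 ± 3.0), *Osmr* (7.95 ± 2.04), *Lifr* (5.84 ± 2.81) and *Il11ra1* (3.43 ± 0.48) followed, each overlapping the next in range. *Il6ra* (0.29 ± 0.018) and *Il6* (0.026 ± 0.0019 CPM per kb, SD, n = 3 throughout) were lowest and separate. Among the 10 genes, the ligand and the specific receptor of the interleukin-6 arm had the lowest levels. The place of *Osmr* depended on the length used: with the longest transcript in place of all exons it was the 3rd of the 10 in CTL, not the 6th.

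After TGF-β1 *Il11* led the order with 101 ± 38.5 CPM per kb, above *Clcf1* (41.5 ± 6.2) and *Il6st* (30.8 ± 2.3, SD, n = 3 each). No neighbours in this order overlapped, but it also depended on the length used. With the longest transcript, *Osmr* (7.81 CPM per kb) was the 5th and *Socs3* (7.63) the 6th, in place of the reverse. The place of *Il11ra1* rests on the uncertain counts described above. *Il11* made up 11.7%, 19.3% and 12.9% of the summed CPM per kb of the 4 cytokine genes in CTL replicates 1, 2 and 3, and 59.5%, 71.2% and 54.6% in the TGF-β1 replicates. Per kb, the *Il11* to *Il6st* ratio averaged 0.199 ± 0.025 among CTL cultures and 3.37 ± 1.54 among treated ones (SD, n = 3 each).

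**Figure D4:**
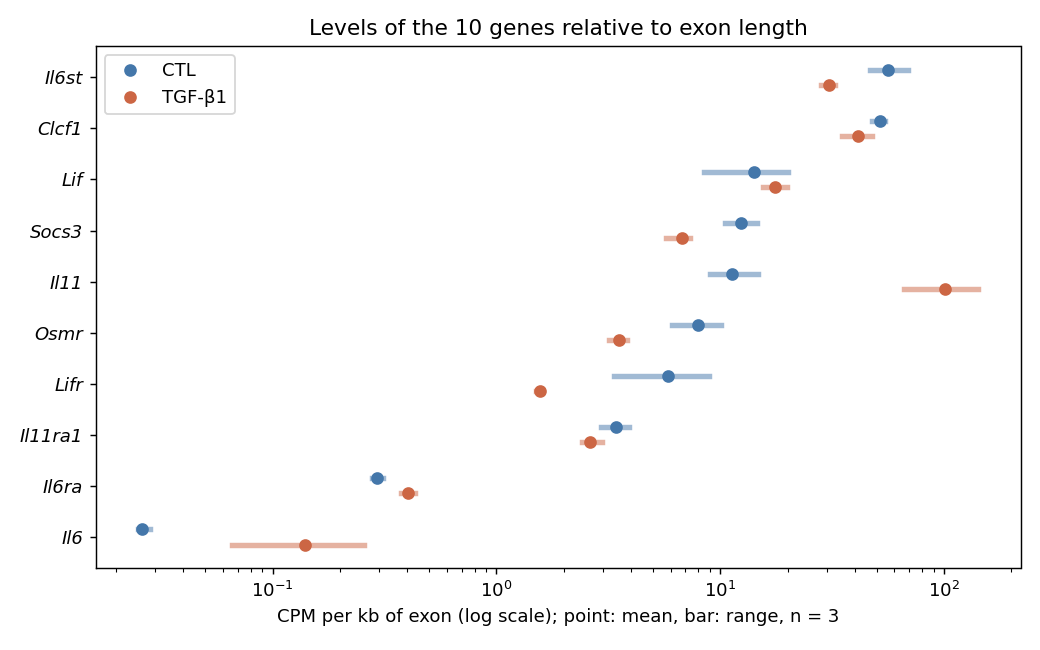
Levels of the 10 genes in CPM per kb of exon on a log axis, with points for the mean and bars for the range of 3 cultures in CTL and TGF-β1. *Il11* moves from the 5th place in CTL (11.3) to the 1st after TGF-β1 (101), and *Il6ra* and *Il6* stay at the bottom.

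The replicate number, a measure that did not choose the genes, was tested in the same cultures with the condition in the model. Of the 9 genes, 2 differed between replicate numbers, *Il11* (edgeR adjusted p = 0.0252) and *Clcf1* (edgeR adjusted p = 0.0279), where 18.1% of all tested genes did. The count is near that share, and nothing about the 9 genes as a set is read from it. *Il11* was higher in replicate 2 than in the mean of the others by 0.74 on the log2 scale, in both conditions, and *Clcf1* was lowest in replicate 3 in both. *Lif* and *Il11ra1* had edgeR adjusted p-values of 0.0928 and 0.093, and those of the other 5 genes ran from 0.194 to 0.858.

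The genes whose log2 CPM followed that of *Il11* most closely over the 6 cultures, among 10908 with a mean of at least 5 CPM, were *Smarca5*, *Csrp2*, *Tspan31*, *Irf2bp2* and *Cotl1*. Their Pearson correlations with *Il11* were 0.997 to 0.998 (n = 6 cultures, which fall into the 2 conditions). Their log2 fold changes ran from 0.20 for *Smarca5*, a chromatin remodeling ATPase, to 1.81 for *Csrp2*, a LIM-domain protein. Among the 10 genes, *Il6ra* was the closest at 0.974, *Lif* had 0.311, and *Socs3* was the farthest at -0.91.

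Of 62 further genes of the pathway, listed by role, 46 were tested. 5 were higher and 9 were lower at an adjusted p-value under 0.05, where 5% and 6.69% of all tested genes were. The median log2 fold change of the 46 was -0.13, against -0.0028 over all genes. With the replicate block 9 were higher and 21 lower, where 15.1% and 19.1% of all tested genes were. The same shares stand beside the counts by role below, which cover few genes each. Without CTL replicate 1, 0 were higher and 3 lower, and without TGF-β1 replicate 1, 0 were higher and 4 lower. Of the 14 genes past the threshold, *Fgb*, *Serpina3n* and *Cish* passed in all 6 fits that left out 1 culture.

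Of the other cytokines of the family, *Cntf*, a neurotrophic factor, fell by 1.22 on the log2 scale at a low level (2.61 CPM in CTL, edgeR adjusted p = 0.0298). Of the 6 leave-one-out fits, the one without CTL replicate 3 alone kept *Cntf* past the threshold. Its adjusted p-value was 0.00286 in edgeR with the replicate block and 0.0016 in DESeq2. *Ctf1*, encoding cardiotrophin-1, had a log2 fold change of -0.34, past the threshold only with the block (edgeR adjusted p = 0.231, and 0.0115 with the replicate block). *Osm*, *Ctf2*, *Il27*, *Ebi3* and *Il31* had at most 8 reads in any library and were not tested.
Of the other receptors, *Il27ra*, a partner of gp130 for interleukin-27, fell by 0.97 (edgeR adjusted p = 0.0439) at 0.54 CPM in CTL, a call that DESeq2 did not make (adjusted p = 0.215). *Cntfr*, the specific chain for the products of *Cntf* and *Clcf1*, had 16.5 ± 1.2 and 17.0 ± 1.2 CPM (SD, n = 3 each). *Cntfr* was named after its values were seen.

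Of 9 kinases, STATs and adaptors, 0 passed in edgeR, where 11.7% of all tested genes passed in either direction. With the replicate block 3 were lower, among them *Stat5a* (-0.36) and *Stat5b* (-0.16, edgeR adjusted p = 0.0246 and 0.0399 with the replicate block). The shares of all genes with the block were 15.1% higher and 19.1% lower. So few genes cannot be set apart from these shares, and nothing is read from the counts. *Stat3*, named after its values were seen, averaged 267 ± 31.3 CPM among CTL cultures and 249 ± 5.5 CPM among treated ones (SD, n = 3 each). The sheddases that release soluble receptors, *Adam10* and *Adam17*, did not pass in either fit; the log2 fold change was 0.13 for *Adam10* (standard error 0.09, edgeR adjusted p = 0.404).

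Among 6 other negative regulators, *Cish*, a feedback gene of STAT5 signalling from the same family as *Socs3*, fell. It had 31.8, 26.5 and 21.7 CPM in CTL and 9.91, 7.85 and 9.48 CPM after TGF-β1, with no overlap. The log2 fold change was -1.55 (standard error 0.16, edgeR adjusted p = 0.00601), and *Cish* passed in all 6 fits that left out 1 culture. With the block, *Ptpn2*, *Socs2* and *Ptpn6* were also lower and *Socs1* was higher (edgeR adjusted p = 0.0108, 0.00568, 0.00731 and 0.0135 with the replicate block). In the fit without the block the log2 fold changes of *Ptpn2*, *Socs2*, *Ptpn6* and *Socs1* were -0.21, -0.28, -0.46 and 0.52 (edgeR adjusted p = 0.0728, 0.546, 0.612 and 0.118).

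Of 7 genes that control the decay of cytokine mRNAs, through AU-rich elements or other sites, 2 rose. *Arid5a*, whose protein stabilises *Il6* mRNA, rose by 0.78 on the log2 scale (standard error 0.11, edgeR adjusted p = 0.012). *Elavl1*, encoding the AU-rich element binding protein HuR, had 0.35 (standard error 0.06, edgeR adjusted p = 0.0157). *Zfp36l1*, a decay factor of the tristetraprolin family, had -0.43, past the threshold only with the block (edgeR adjusted p = 0.268, and 0.0122 with the replicate block). *Zfp36*, tristetraprolin itself, named after its values were seen, had 25.9 ± 1.5 and 25.8 ± 4.3 CPM (SD, n = 3 each).

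The STAT3 target genes went in both directions. Of 13 genes, 12 were tested, 2 rose and 3 fell, and with the replicate block 5 were higher and 5 lower. *Cebpd*, an acute-phase transcription factor, had 46.1, 43.6 and 30.7 CPM in CTL and 20.7, 15.8 and 15.1 CPM after TGF-β1. *Bcl3*, a nuclear IκB protein, had 32.1, 29.0 and 29.4 CPM in CTL and 15.7, 10.3 and 16.8 CPM after TGF-β1. Neither gene overlapped between groups, and the log2 fold changes were -1.22 and -1.08 (standard errors 0.19 and 0.18, edgeR adjusted p = 0.017 and 0.0201). *Birc5*, which encodes survivin and is also a gene of dividing cells, fell by 1.93 (edgeR adjusted p = 0.0128). *Vegfa*, the endothelial growth factor, and *Il4ra*, an interleukin-4 receptor chain, rose by 0.75 and 0.58 (edgeR adjusted p = 0.0237 and 0.0216). *Timp1*, a protease inhibitor, had 0.72 with wide spread (standard error 0.32, edgeR adjusted p = 0.206, and 0.00105 with the replicate block).

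The acute-phase genes, which interleukin-6 type cytokines induce in liver, were lower or barely detected. Of 13, 8 were not tested, with at most 19 reads in any library, and all 5 tested had negative log2 fold changes, with a median of -1.94. Of all 15862 tested genes, 8036 had negative values. The 5 include *Fgb*, and so few genes do not show a trait of the list. *Fgb*, the fibrinogen β chain, whose fall was known beforehand, had 28.9, 44.4 and 25.02 CPM in CTL and 0.577, 0.621 and 0.385 CPM after TGF-β1. *Serpina3n*, a protease inhibitor, had 53.0, 63.7 and 37.0 CPM in CTL and 12.8, 15.2 and 11.97 CPM after TGF-β1. In both genes CTL replicate 2 was the highest culture and the groups were far apart. Their log2 fold changes were -5.95 and -1.94 (standard errors 0.32 and 0.22, edgeR adjusted p = 0.00121 and 0.00712).
The complement gene *C3* fell by 2.22 (standard error 0.53, edgeR adjusted p = 0.0492), just inside the threshold, and with a filter of at least 10 reads in every library the edgeR adjusted p-value was 0.051. Of the 6 fits that left out 1 culture, the one without TGF-β1 replicate 2 alone kept *C3* past the threshold. Its edgeR adjusted p-value was 0.00059 with the replicate block, and 0.173 when all genes with at least 1 read were tested. DESeq2 gave an adjusted p-value of 4.0e-05 for *C3*. *Cp*, encoding ceruloplasmin, and *Lcn2*, encoding the tubule injury marker NGAL, had log2 fold changes of -0.94 and -1.15 (edgeR adjusted p = 0.0845 and 0.376). Both passed with the block (edgeR adjusted p = 0.000145 and 7.11e-06 with the replicate block). *Lcn2* differed widely by replicate number, with 427, 127 and 697 CPM in CTL and 202, 62.6 and 298 CPM after TGF-β1. The lowest *Lcn2* values were those of replicate 2, which also had the lowest sums of tubule epithelial markers, and the part of these markers in the result was not tested.

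**Figure D5:**
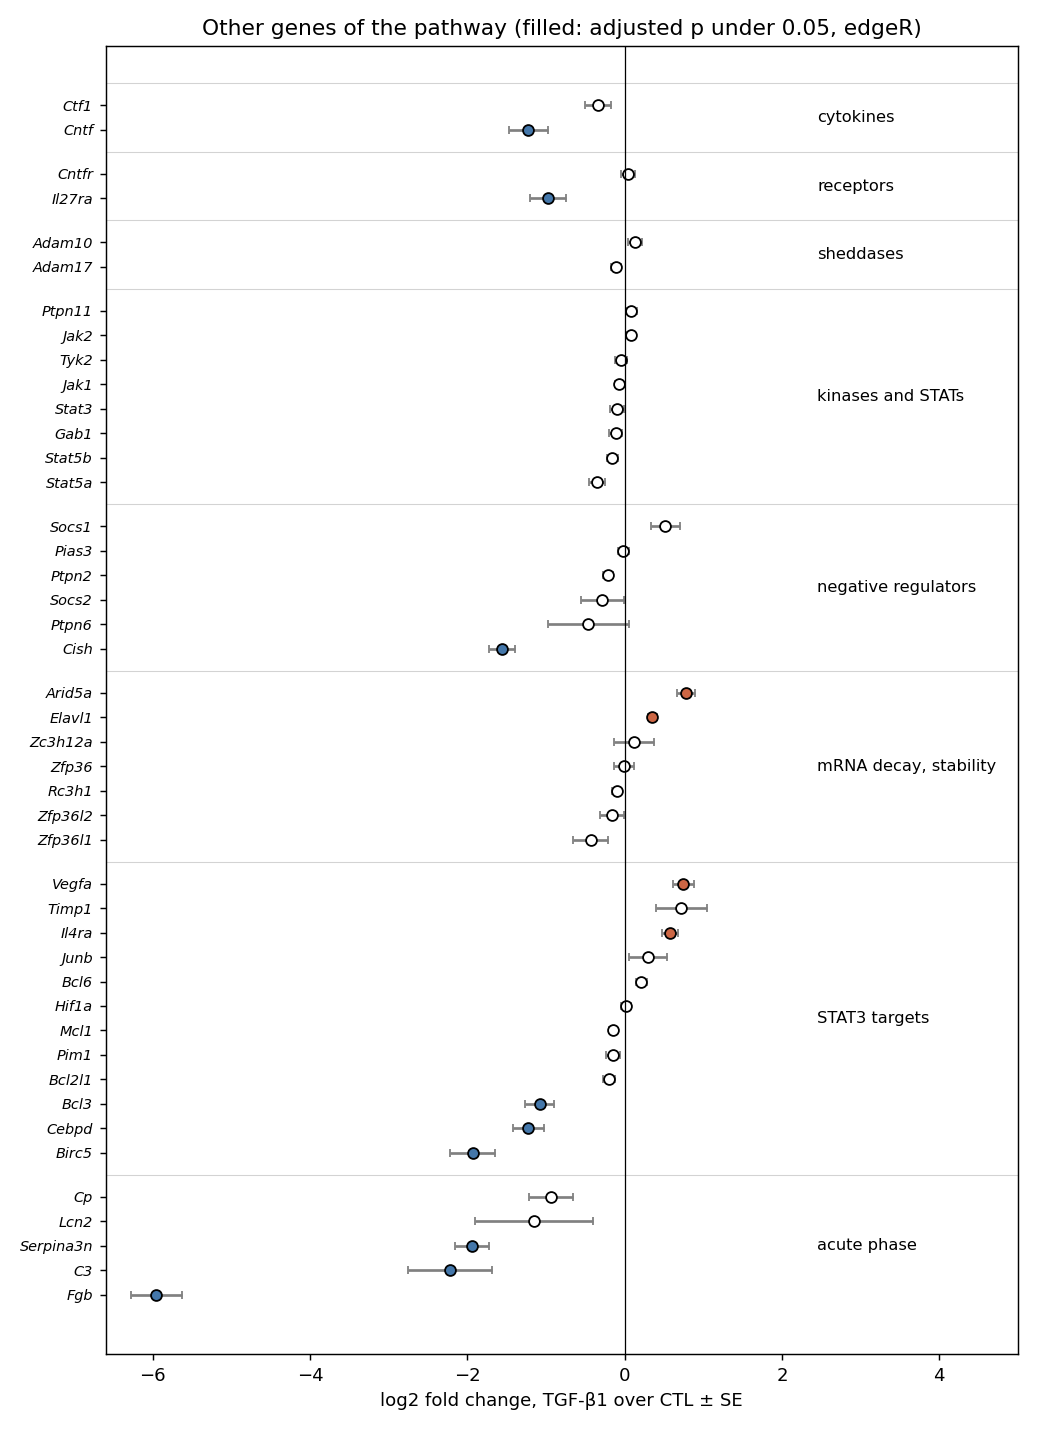
Log2 fold changes (TGF-β1 over CTL, ± standard error) of 44 tested pathway genes by role, filled where the edgeR adjusted p-value was under 0.05 (orange higher, blue lower). The kinases and STATs lie near 0, and all 5 acute-phase genes lie below 0, down to -5.95 for *Fgb*.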

How the data were processed

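The authors prepared TruSeq libraries of poly(A) mRNA, sequenced them as single reads, trimmed these with Trim Galore, aligned them to GRCm38 with STAR 2.4.1d and counted them on genes with HTSeq 0.6.1. The annotation release and strand setting are not given in the sources used here. The deposited values are these read counts per gene, without normalization. HTSeq's summary rows were left out; reads aligning to several places made up 18.7% to 19.4% of all rows' reads, and such reads are counted on no gene.

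Groups and replicate numbers came from the sample titles. Symbols, positions and exon lengths came from GENCODE M21 (GRCm38), which named 98.9% of the gene identifiers; promoters came from RefSeq (GRCm38.p6). Counts were tested in R 4.3.3 with edgeR 4.0.16 (filterByExpr, TMM, glmQLFit with robust estimation, two-sided glmQLFTest). P-values were adjusted over 15862 genes by the Benjamini-Hochberg method, and 0.05 was the threshold. CPM were computed from TMM-scaled library sizes, and log2 CPM with a prior count of 2. Standard errors came from the F statistic. The count models were run on simulated counts, with the condition effect simulated without differences between replicate numbers. Such counts cannot show how the fit without the block behaves on these data.

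Deviations from the group means correlated at 0.34, 0.684 and 0.572 between same-numbered CTL and TGF-β1 cultures, so the numbers were taken to pair them. Blocked values are given where they change a call, and for *Cntf* and *C3*. Standard errors and the fits that left out cultures came without the block, so they include differences between replicate numbers. With the block the standard error of *Il11* was 0.13 in place of 0.34, and that of *Il6st* was 0.145 in place of 0.152. No library pair agreed within sampling noise (chi-square per degree of freedom at least 9.82). 3 reads correspond to 0.0889 to 0.103 CPM, counting error only.

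The genes, gene lists and motifs were chosen with earlier results of these data known, including the rise of *Il11* and the fall of *Fgb*. Pathway genes named were, of each role, those past the threshold with or without the block (largest change first, at most 6), or the most abundant if none passed. Alternatives were DESeq2 1.42.0, RLE factors, library size only, other filters, the replicate block, a threshold of 0.01, and leaving out cultures. Some items of the lists are counted but not reported here by name.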

Additional observations from a re-analysis of the deposited data

How the results depend on the processing

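*Il11* stayed between 2.84 and 3.41 on the log2 scale under each alternative and passed the threshold in all but the fit without both replicate 1 cultures. Since this comparison chose the 10 genes, their calls under the alternatives are a description only. *Il6st*, *Lifr*, *Osmr* and *Socs3* stayed below 0 in every fit, from -1.03 to -0.64, -2.18 to -1.47, -1.39 to -0.88 and -1.03 to -0.65. RLE factors moved 0 of 46 fitted log2 fold changes. For the 10 genes a move was a shift of at least the SD of the pair log2 ratios. For the other genes it was a crossing of the threshold or a change of sign. Beyond the blocked values given above, the replicate block changed no other call of the 10 genes, the named pathway genes or the genes closest to *Il11*. It did change calls of cell type markers. Of the fibroblast markers, 0 passed without the block. With it *Col1a1* and *Col1a2* were higher and *Pdgfrb* and *Dcn* lower (edgeR adjusted p = 0.00628, 0.0145, 0.000431 and 0.0256 with the replicate block). *Epcam* and *Cdh1* were among the 6 tubule markers lower with the block (edgeR adjusted p = 0.0376 and 0.0194). Of all tested genes, 5% were higher and 6.69% lower without the block, and 15.1% and 19.1% with it. For all changes that follow, the cause was not tested.

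Of the 10 genes, 1 was higher and 4 were lower. The replicate block gave 2 and 6, and 0 were lower at a threshold of 0.01. Fits that left out 1 culture gave 1 higher in each and 0 to 4 lower, and fits without both cultures of a number gave 0 to 1 higher and 0 to 4 lower. Of the pathway genes, 5 were higher and 9 lower. These became 9 and 21 with the replicate block, and 0 and 3 at a threshold of 0.01. Leave-one-out fits called 0 to 5 as higher and 3 to 7 as lower, and fits without both cultures numbered 1, 2 or 3 called 0, 7 and 1 as higher and 0, 8 and 4 as lower. Over all genes, 793 were higher and 1061 lower. These became 2388 and 3037 with the replicate block, and 127 and 192 at a threshold of 0.01, and library size only gave 508 higher and 1467 lower genes. Leave-one-out fits called 109 to 516 as higher and 186 to 807 as lower, and fits without both cultures numbered 1, 2 or 3 called 0, 1084 and 95 as higher and 0, 1290 and 190 as lower. With the longest transcript length, 6 of the 10 genes kept their place in the CTL order. The DESeq2 likelihood ratio test also gave 2 genes with a replicate number effect, *Il11* and *Clcf1*. *Tgfbi*, not past the threshold, had -0.18 from all cultures and -0.3487 to 0.058 in leave-one-out fits, positive when CTL replicate 2 (0.058) or TGF-β1 replicate 3 (0.0056) was absent. Reads were few for *Il6* and *Il6ra*.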

Other observations

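*Socs3* and *Il6st* kept a near constant ratio across the cultures. Per kb of exon, *Socs3* over *Il6st* was 0.229, 0.211 and 0.226 in CTL replicates 1, 2 and 3 and 0.234, 0.203 and 0.218 in TGF-β1 replicates 1, 2 and 3, so the groups overlapped while each gene on its own did not. *Osmr* over *Il6st* was 0.140 ± 0.0086 in CTL and 0.115 ± 0.002 after TGF-β1, and *Lifr* over *Il6st* was 0.0998 ± 0.0283 and 0.051 ± 0.0054 (SD, n = 3 each). *Lifr* was the receptor chain that fell most relative to gp130, with ratios of 0.0719 to 0.129 in CTL and 0.046 to 0.0567 after TGF-β1. These ratios were chosen after the values were seen and were not tested.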
